A study of Bos taurus with 8 samples.

Results

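The subject is the gene set of the nuclear pore and the nuclear transport receptors in bovine blastocysts. Members were chosen by the gene symbol of the array's platform annotation alone: nucleoporins with a numbered NUP symbol, SEH1L and RAE1, the importins (KPNA, KPNB, IPO and TNPO symbols), the exportins (XPO symbols and CSE1L), and the Ran proteins RANBP1 and RANBP2. The rule also lists RAN, RANGAP1 and RCC1, but no probe of the annotation carries these symbols, and the genes were not analysed here. It found 48 of the 15229 annotated genes, with 74 of the array's 43795 probes. Of these, 60 probes of 45 genes were bright enough to be tested.

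Bovine embryos at the expanded blastocyst stage from 2 origins were compared. In vivo embryos were flushed from the uterus of Holstein donors 7.5 days after the first insemination (7 days in the sample entries). Before that, follicles above 8 mm were aspirated at days 8 to 12 of the cycle, and 36 h later the donors began a course of 8 FSH injections, 400 mg in all, in doses falling from 60 to 20 mg. They received 500 ug of a prostaglandin F analogue with each of the last FSH injections and were inseminated 12 and 24 h after oestrus. In vitro embryos came from cumulus-oocyte complexes of follicles of 2 to 6 mm, were matured, fertilized and cultured in vitro, and were collected 168 h after fertilization. The in vitro fertilization and the inseminations used the same pooled semen. The labels name the in vitro oocytes as OPU in the source name and as from slaughterhouse ovaries in the treatment text. The number of embryos per replicate is not stated. Every donor treatment goes wholly with the origin and cannot be told apart from it. RNA of both origins was hybridised together on 8 two-colour arrays: 4 numbered replicates, each once with in vitro RNA in Cy5 (slide 58) and once with in vivo RNA in Cy5 (slide 61). The 2 arrays of a number were averaged, so n = 4, and p-values measure the spread between these 4 replicate pairs.

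The nuclear pore complex is a ring-shaped channel through the nuclear envelope, built from many copies of nucleoporins. A Y-shaped outer scaffold and an inner ring hold a channel lined with phenylalanine-glycine repeats, which exclude large cargo unless a transport receptor carries it. Importin alpha binds the classical nuclear localization signal and hands the cargo to importin beta. Other importins of the beta family bind cargo themselves, exportins carry cargo out with Ran-GTP, and the exportin CSE1L returns importin alpha to the cytoplasm. In early embryos, nuclear import brings maternal and embryonic regulators to the chromatin, and importin alpha genes are known to change with stage.

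Each value below is a log2 ratio, in vitro over in vivo, so a positive value means a higher transcript level in vitro. Means are given ± SE from limma over 4 replicates, and adjusted p is limma's two-sided test with Benjamini-Hochberg adjustment over the 24775 probes tested. A gene was called when the adjusted p of its brightest tested probe was under 0.05. In these bulk samples, fewer cells of a type and less RNA per cell cannot be told apart.

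Among the 45 member genes tested, 5 were higher in vitro (KPNA1, KPNA2, CSE1L, NUP37 and NUP98) and 9 were lower (IPO13, NUP85, NUP188, IPO4, NUP93, NUP214, NUP50, XPOT and NUP133). The rises comprised 2 importin alpha genes, their exportin and 2 nucleoporins, and the falls 6 nucleoporins and 3 other receptors. Nucleoporins are 21 of the 45 genes tested. The 14 called genes are 31.1% of the member genes. Of all 10188 genes tested, 19.2% were called, 8.1% higher and 11.1% lower. Counted by probe, 14 of 60 member probes were called (23.3%), beside 15.8% of all tested probes. The member probes split into 5 higher (all probes 7.01%) and 9 lower (all probes 8.8%), and 27 had an unadjusted p under 0.05 (all probes 29.8%). A second fit, over the 8 arrays with a dye term and the replicate number as a block, is called the replicate block here. This fit counts degrees of freedom over 8 arrays and not over 4 replicates, so its calls add no replication. It called 20 of 45 genes, 7 higher and 13 lower, beside 29% of all genes. No called member reached a 2-fold change, and sizes ran from 0.36 to 0.95. The median log2 ratio of the 45 genes was -0.11, beside -0.01 over all genes tested, with 16 genes above 0 and 29 below.

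**Figure D1:**
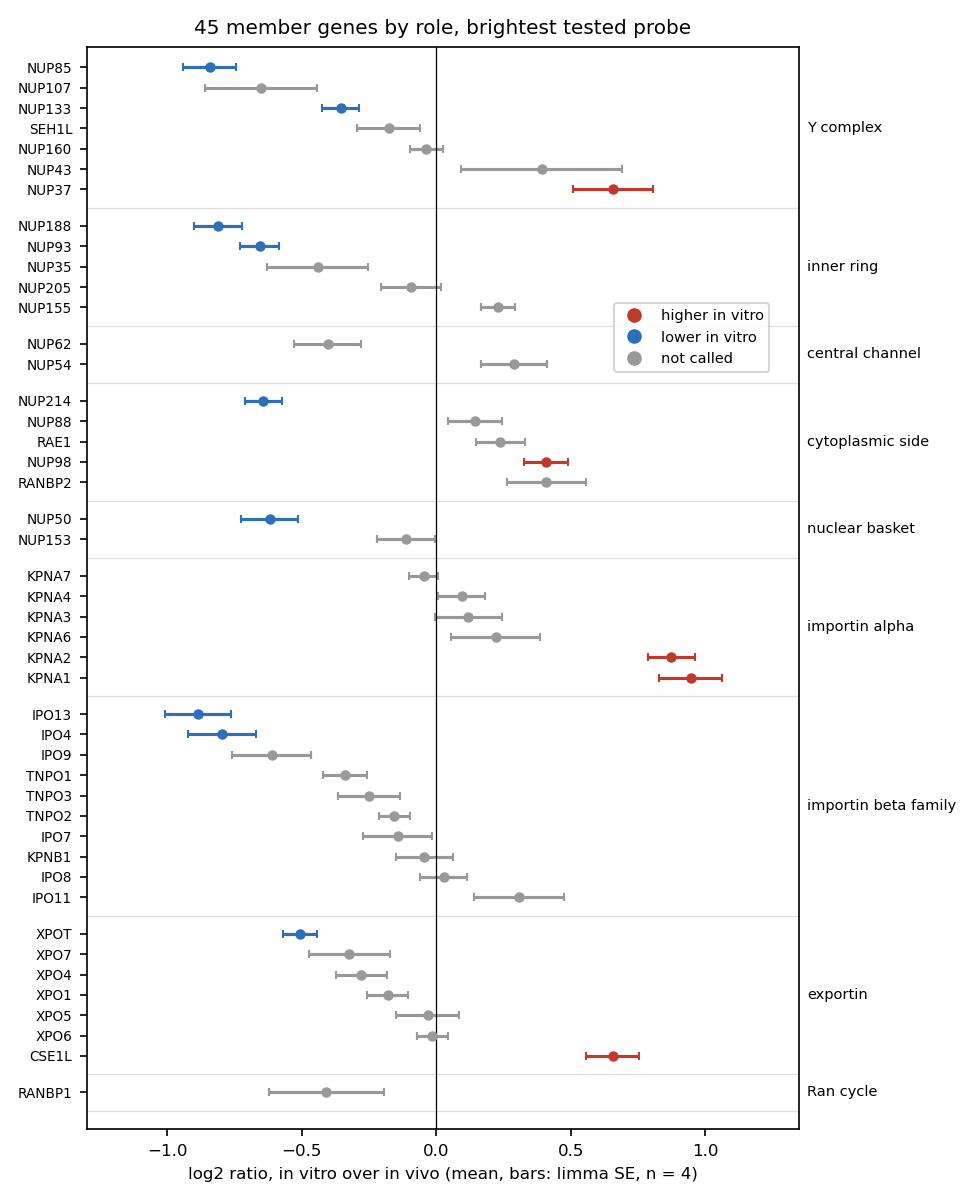
Log2 ratio of in vitro over in vivo for the brightest tested probe of 45 member genes, grouped by role, with points for the mean of 4 replicates and bars for limma's SE. Red points are the 5 genes called higher in vitro and blue points the 9 called lower. KPNA1 and KPNA2 lie at 0.95 and 0.87, while the other importin alpha genes lie between -0.05 and 0.22.

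Of 6 importin alpha genes tested, KPNA1 and KPNA2 were higher and the other 4 were not called, where 8.1% of all genes were higher. The role groups here and below are small and were described without a test of the group. KPNA1, an importin alpha whose mammalian protein imports STAT factors among other cargo, gave 0.92, 0.75, 0.77 and 1.34 in replicates 1 to 4. All 4 replicates and all 8 arrays were higher in vitro, and the mean was 0.95 ± 0.12, a 1.93-fold difference (adjusted p = 0.0114). KPNA2, the importin alpha that is abundant in many dividing cells and known from the mouse for the import of OCT4, gave 1.12, 0.92, 0.75 and 0.71. It was also higher on all 8 arrays, at 0.87 ± 0.09 or 1.83-fold (adjusted p = 0.00864). KPNA2 spots read 12797 to 19438 in vitro and 6902 to 9833 in vivo, with no overlap, while KPNA1 spots read 1151 to 3040 and 725 to 1662 and overlapped between arrays. The share of all probes without such overlap was not counted, and KPNA2 was called on these same arrays. KPNA2 was the only member called under every alternative processing tried and without each replicate.

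The remaining importin alpha genes were not called. KPNA3 gave 0.12 ± 0.12 (adjusted p = 0.633) and KPNA4 gave 0.09 ± 0.09 (adjusted p = 0.584). KPNA6 gave 0.22 ± 0.17 (adjusted p = 0.476), with replicate 1 at -0.31 and replicate 2 at 0.68. KPNA7, known from cattle as an importin alpha of oocytes and early embryos, gave -0.05 ± 0.05 (adjusted p = 0.675) on its brightest probe. The KPNA7 replicates lay between -0.10 and 0.01, and its reading never exceeded 301 on any array, where the cut for detection ran from 76.1 to 229 between channels. The single KPNA5 probe was detected on 6 of 8 arrays in vitro and 7 of 8 in vivo and was not tested.

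CSE1L, which exports importin alpha back to the cytoplasm, was higher in vitro. Its replicates were 0.60, 0.97, 0.46 and 0.60, all higher in vitro, and the mean was 0.66 ± 0.10 or 1.58-fold (adjusted p = 0.0171). Its readings were 15236 to 17705 in vitro and 8727 to 11273 in vivo, so the groups did not overlap even before normalization. The readings of NUP214, NUP50 and XPOT, all called lower, did not overlap either, and the share over all probes was not counted. These genes were called on the same arrays, so the lack of overlap adds no separate support. KPNB1, the importin beta partner of importin alpha, gave -0.09, -0.01, -0.33 and 0.26. Its replicates fell on both sides of 0 and it was not called (-0.04 ± 0.11, adjusted p = 0.868).

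In the importin beta family 2 of 10 genes were lower and none was higher, a called share of 20% that is close to the 19.2% of all genes. Of the 10 ratios 8 were below 0, with a median of -0.20, beside 5448 of 10188 and -0.01 over all genes. IPO13, a receptor that both imports and exports and is known for the SUMO-conjugating enzyme UBC9 as cargo, gave -0.72, -0.99, -1.24 and -0.60. It was lower on all 8 arrays, at -0.89 ± 0.12 or 1.85-fold (adjusted p = 0.0141). IPO4, an importin of histones and ribosomal proteins, gave -0.49, -0.77, -1.20 and -0.72. Its mean was -0.80 ± 0.13 or 1.74-fold (adjusted p = 0.0187), again lower on all 8 arrays. Both probes were dim: in vitro the IPO13 probe read 102 to 205 and the IPO4 probe 114 to 221, each above the cut of its own array, so the size of these falls may be understated. The 8 other genes of the family lay between -0.61 and 0.31. IPO9 (-0.61 ± 0.15, adjusted p = 0.0539) and the transportin TNPO1 (-0.34 ± 0.08, adjusted p = 0.0523) were nearest to the threshold. Both were called lower by the replicate block, with an adjusted p of 0.00732 for IPO9 and 0.0228 for TNPO1.

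Exportins other than CSE1L included 1 called gene, where 19.2% of all genes were called. XPOT, the tRNA exporter, gave -0.61, -0.38, -0.50 and -0.54. All 4 replicates were lower in vitro, at -0.51 ± 0.06 or 1.42-fold (adjusted p = 0.0114), yet 1 of 8 arrays was higher, and the slides differed in size: -0.13 on slide 58 and -0.89 on slide 61. Taken alone, slide 58 gave an adjusted p of 0.269 and slide 61 of 0.00298. XPO1, the main exporter of proteins with leucine-rich export signals, gave -0.18 ± 0.08 (adjusted p = 0.202). XPO4 gave -0.28 ± 0.10 (adjusted p = 0.128) and XPO7 gave -0.32 ± 0.15 (adjusted p = 0.244). XPO5, the exporter of microRNA precursors, gave -0.03 ± 0.12 (adjusted p = 0.916), and XPO6, the actin exporter, gave -0.01 ± 0.06 (adjusted p = 0.921). RANBP1, which helps RanGAP release Ran-GTP from receptors, is the only tested member of the Ran cycle. Its replicates were -0.41, 0.35, -0.84 and -0.74, with replicate 2 opposite to the others, and it was not called (-0.41 ± 0.21, adjusted p = 0.295).

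**Figure D2:**
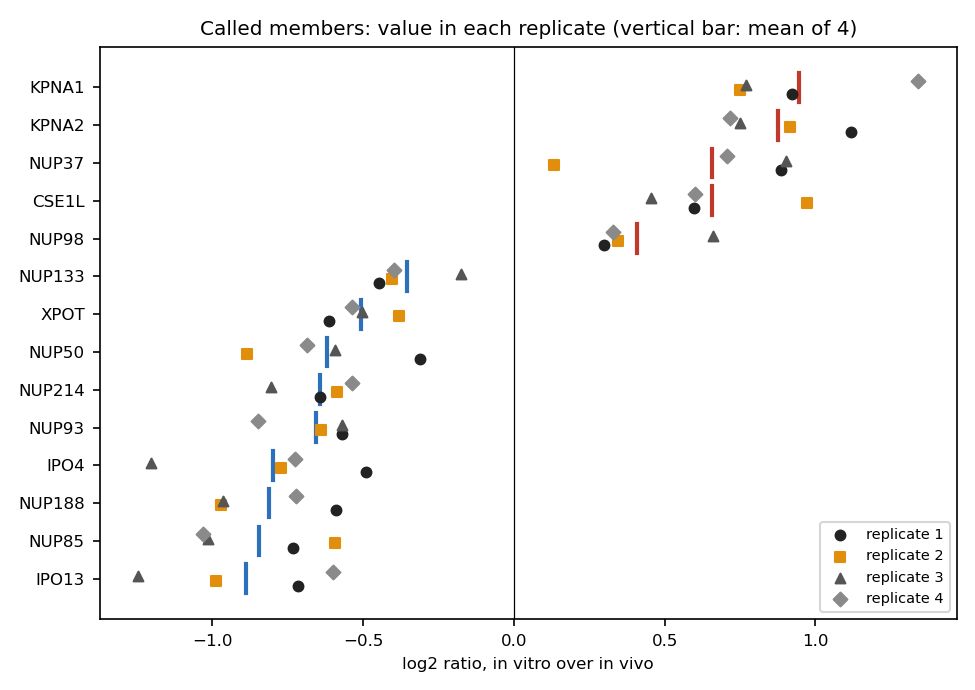
Log2 ratio of in vitro over in vivo in each of 4 replicates for the 14 called members, with the mean as a coloured bar (red higher, blue lower in vitro). No replicate of a called gene crosses 0, and the value nearest to 0 is replicate 2 of NUP37 at 0.13.

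The Y complex, the outer scaffold of the pore, moved both ways: of 7 genes 1 was higher and 2 were lower. Of all genes tested, 8.1% were higher and 11.1% lower. NUP85 gave -0.73, -0.59, -1.02 and -1.03 and was lower on all 8 arrays, at -0.84 ± 0.10 or 1.79-fold (adjusted p = 0.0102). NUP133, at the stem of the Y, had a smaller fall of -0.36 ± 0.07 (adjusted p = 0.0317), with -0.45 on slide 58 and -0.26 on slide 61 (adjusted p = 0.0815 on slide 61 alone). The NUP133 call was also lost with median centring and with an intensity trend in limma's prior. NUP37, a WD-repeat protein bound at the side of the complex, went the other way at 0.89, 0.13, 0.90 and 0.71. It was higher on all 8 arrays, at 0.66 ± 0.15 or 1.58-fold, and its adjusted p of 0.0454 is the closest to the threshold among called members. The NUP37 call was lost with no background correction, with median centring and with no filter on dim probes.

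The other Y complex genes were not called and lay between -0.65 and 0.39. NUP107 had replicates of -0.48, -1.40, -0.21 and -0.52 and NUP43 had 0.84, -0.72, 0.91 and 0.55, so that replicate 2 set their spread. NUP107 passed in the replicate block (adjusted p = 0.0187). SEC13, another scaffold protein of the complex, does not carry a NUP symbol and is no member. It was lower at -0.62 ± 0.07 (adjusted p = 0.00899), while AHCTF1, which ties the complex to chromatin, gave -0.23 and was not called.

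The inner ring had 2 of 5 genes lower and none higher, beside 11.1% lower and 8.1% higher of all genes. NUP188 gave -0.59, -0.97, -0.96 and -0.72, a mean of -0.81 ± 0.09 or 1.76-fold (adjusted p = 0.00933). NUP93, which anchors NUP188 and NUP205 in the ring, gave -0.57, -0.64, -0.57 and -0.85, a mean of -0.66 ± 0.07 or 1.58-fold (adjusted p = 0.0095). Both were lower on all 8 arrays and nearly equal on the slides: -0.81 and -0.81 for NUP188, -0.66 and -0.65 for NUP93. The NUP188 probe was dim in vitro, with readings of 110 to 204. The other inner ring genes lay between -0.44 and 0.23. NUP155 was at the upper end and was called higher by the replicate block (adjusted p = 0.0403) but not over 4 replicates (adjusted p = 0.0767).

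Neither member of the central channel was called, with NUP62 at -0.40 ± 0.12 (adjusted p = 0.0968, block adjusted p = 0.0228) and NUP54 at 0.29 ± 0.12 (adjusted p = 0.206). Their partner in the channel complex is NUP58, which the annotation lists under its older symbol NUPL1, outside the rule. NUPL1 was higher at 0.56 ± 0.06 (adjusted p = 0.00976).

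On the cytoplasmic side of the pore 1 of 5 genes was lower and 1 was higher, beside 11.1% and 8.1% of all genes. NUP214, a repeat nucleoporin that binds XPO1 and the mRNA export helicase, gave -0.64, -0.59, -0.81 and -0.54. It was lower on all 8 arrays, at -0.64 ± 0.07 or 1.56-fold (adjusted p = 0.009), and nearly equal on the slides (-0.60 and -0.69). NUP98, a mobile repeat nucleoporin that works with RAE1 in mRNA export and is placed here by that partner, gave 0.30, 0.35, 0.66 and 0.33. Its mean was 0.41 ± 0.08 or 1.33-fold (adjusted p = 0.0349), but 2 of 8 arrays were lower in vitro, with 0.71 on slide 58 and 0.11 on slide 61 (adjusted p = 0.406 on slide 61 alone). The NUP98 call was also lost with no background correction, with median centring, with an intensity trend and in the authors' deposited log2 ratios. RANBP2, the giant cytoplasmic filament protein that holds SUMO-modified RanGAP, gave 0.57, -0.12, 0.56 and 0.63. It was not called over 4 replicates (0.41 ± 0.15, adjusted p = 0.137) and passed in the replicate block (adjusted p = 0.0377).

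In the nuclear basket NUP50, which helps release importin alpha from cargo, was lower at -0.31, -0.89, -0.59 and -0.69. Its mean was -0.62 ± 0.11 or 1.54-fold (adjusted p = 0.0225), on all 8 arrays, and the call was lost with median centring. NUP153, the basket's repeat nucleoporin, gave -0.11 ± 0.11 (adjusted p = 0.592). The pore membrane genes NUP210 and NUP210L were not tested: each of their 3 probes was detected on 5 or fewer of 8 arrays in either kind of embryo.

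**Figure D3:**
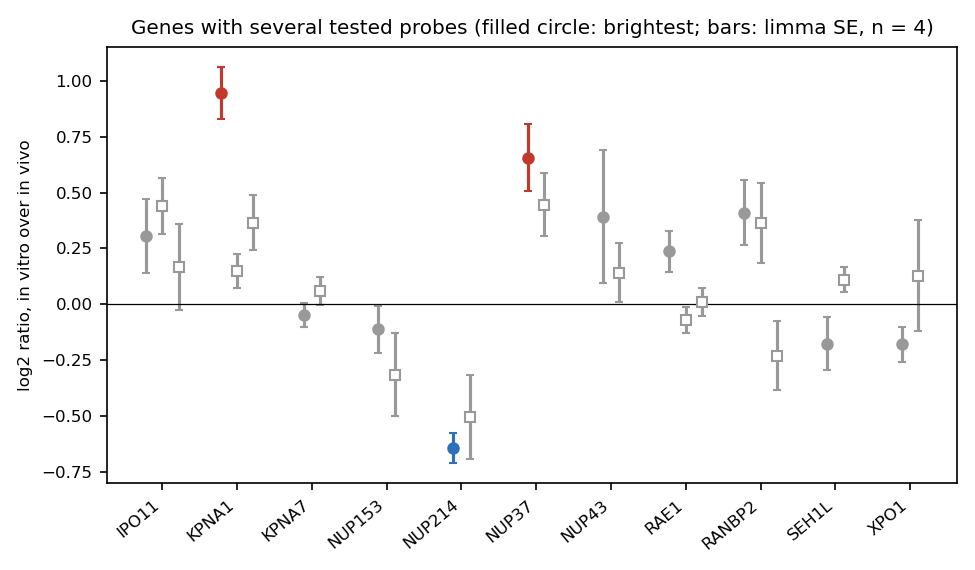
Log2 ratio of in vitro over in vivo for every tested probe of the 11 member genes with several tested probes; filled circles are the brightest probe, open squares the others, and bars limma's SE over 4 replicates. The brightest KPNA1 probe stands at 0.95 and the other KPNA1 probes at 0.15 and 0.36.

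Several genes had more than 1 probe, which share a transcript and are not independent. Of the 11 genes with several tested probes, 6 had all probes on the same side of 0 and 5 did not. KPNA1 had 2 dimmer probes at 0.15 ± 0.08 and 0.36 ± 0.12, neither called (adjusted p = 0.283 and 0.122), so its call and the size of its rise rest on the brightest probe. Neither passed in the replicate block (adjusted p = 0.339 and 0.0502). Without replicate 2, where 34% of all genes were called, both were called higher, at 0.21 and 0.51 (limma adjusted p = 0.0471 and 0.00623). The dimmer NUP37 probe gave 0.45 ± 0.14 (adjusted p = 0.103, block adjusted p = 0.0251), and the dimmer NUP214 probe gave -0.50 ± 0.19 (adjusted p = 0.15). RANBP2 probes disagreed, at 0.41, 0.36 and -0.23. The IPO11 probes were all above 0, at 0.31, 0.44 and 0.17, and the probe at 0.44 passed in the replicate block (adjusted p = 0.0125). The 14 probes that were not tested, which include a second KPNA2 probe detected on none of the arrays, never read above 255.

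Replicate 2 stood apart from the others in these genes as over the whole array. Across the 60 member probes, which are not independent, replicates 1, 3 and 4 correlated with each other at 0.84 to 0.90 and with replicate 2 at 0.42 to 0.52. Over all tested probes the ranges were 0.80 to 0.82 and 0.39 to 0.46. In 7 of 45 member genes replicate 2 had the sign opposite to all the others (15.6%, beside 23.6% of all genes).

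Without replicate 2, 9 member genes were higher and 14 lower (51.1%, beside 34% of all genes), and all 14 genes called over 4 replicates were called in the same direction. The 9 genes added, named because their calls turn on this replicate and chosen after their values were seen, were RANBP2 (0.59), NUP54 (0.43), IPO11 (0.49) and NUP43 (0.76) on the higher side and IPO9 (-0.79), RANBP1 (-0.66), NUP62 (-0.52), NUP107 (-0.40) and NUP35 (-0.21) on the lower side. Leaving out any other replicate took away most calls. Without replicate 1, KPNA2 and NUP188 were called (4.44% of member genes, beside 3.71% of all genes). Without replicate 3 the called genes were KPNA2, NUP214 and NUP93 (6.67%, beside 4.47%), and without replicate 4 they were KPNA1 and KPNA2 (4.44%, beside 2.47%). With replicate 4 left out, limma called no member gene lower, beside 1.3% of all genes. At limma's unadjusted p under 0.05, 12 member genes were lower, and the share over all genes at that threshold was not counted. No called gene changed its direction in any of these fits.

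**Figure D4:**
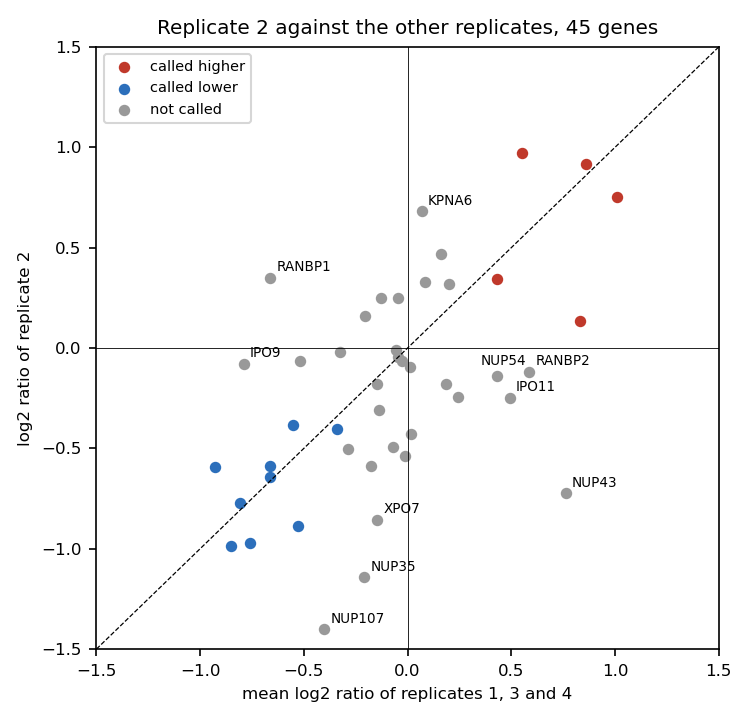
Log2 ratio of in vitro over in vivo in replicate 2 (vertical axis) against the mean of replicates 1, 3 and 4 (horizontal axis) for 45 member genes, with the line of equality dashed. Called genes lie in the quadrants of equal sign, while NUP43 (-0.72 in replicate 2), RANBP2 (-0.12) and RANBP1 (0.35) lie in those of opposite sign.

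The slides differ in dye orientation, so a dye effect on a probe would push their ratios apart and cancel in the mean. All 14 called members had the same sign on both slides, and 11 of them also passed on each slide alone, with NUP98, NUP133 and XPOT as the exceptions. The calls were made on the mean of these same slides, so their selection favours equal signs. How many of all called genes do the same was not counted. Slide 58 alone gave 5 higher and 13 lower member genes (31.4% of all genes were called there), and slide 61 alone gave 5 and 12 (28.1% of all genes). Of the 45 member genes, 34 had the same sign on both slides, and the share over all genes was not counted.

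**Figure D5:**
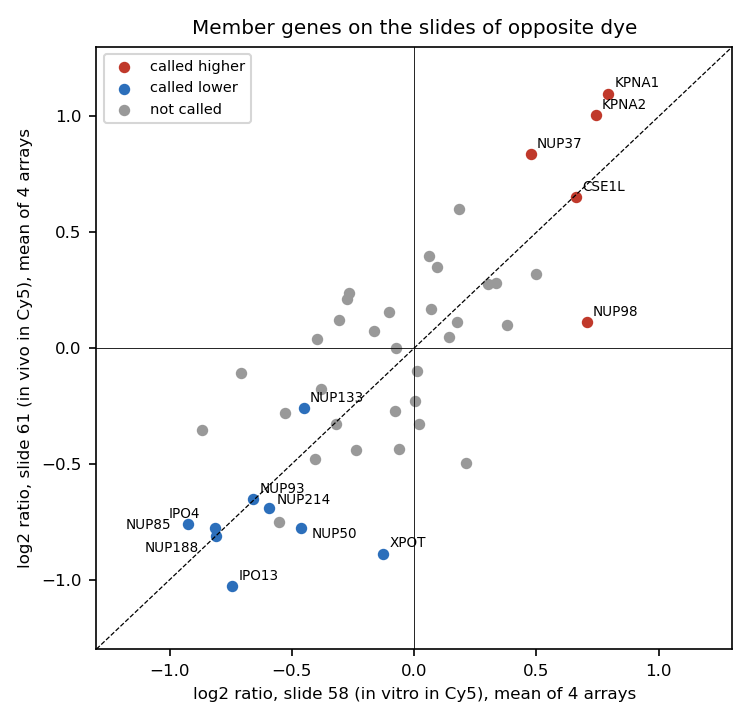
Mean log2 ratio of in vitro over in vivo over the 4 arrays of slide 58 (horizontal axis, in vitro in Cy5) and of slide 61 (vertical axis, in vivo in Cy5) for 45 member genes, with the line of equality dashed. NUP188, NUP93 and CSE1L lie on the line, and XPOT (-0.13 and -0.89) and NUP98 (0.71 and 0.11) lie far from it.

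Genes that work with the members but fall outside the rule were read from the same fit. Of 6 tested nucleoporins with other symbols, 1 was higher (NUPL1) and 1 lower (SEC13). Of 19 tested genes of mRNA and snRNA export, 1 was higher, THOC7 (1.04 ± 0.14, adjusted p = 0.0136), and 3 were lower. The falls were THOC5 (-0.99 ± 0.14, adjusted p = 0.0151), like THOC7 a subunit of the THO complex, and the helicase genes DDX19B (-0.55 ± 0.11) and DDX19A (-0.52 ± 0.11), close relatives whose probes may share signal. Among 9 adaptors and other Ran-binding proteins 1 was higher, RANBP9 at 0.58 ± 0.09. Another 3 were lower: RANBP10 (-0.54 ± 0.08), the snRNP import adaptor SNUPN (-0.44 ± 0.08) and RANBP6 (-0.43 ± 0.08). Of 10 nuclear envelope and lamina genes TOR1AIP2 was higher (0.87 ± 0.11) and the lamin B receptor gene LBR was lower (-0.61 ± 0.13). Of 11 genes of the SUMO pathway, which modifies RanGAP at the pore, PIAS3 (-0.95 ± 0.06) and SENP3 (-0.90 ± 0.13) were lower and none was higher. These lists have 20 to 44.4% of their genes called, or 18.2% for the SUMO pathway, beside 19.2% of all genes.

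The labelled tissue was checked against marker genes. SOX17 of the primitive endoderm was not detected on all arrays of either origin and was not tested. All 9 trophectoderm markers and 3 inner cell mass markers with a probe were tested, as were HNF4A and PDGFRA of the primitive endoderm. Their levels differed between origins: 4 of 9 trophectoderm markers were lower in vitro and none higher, with a median log2 ratio of -1.01, and their mean log2 level was 9.71 to 10.1 in vitro and 10.8 to 11.0 in vivo over replicates. NANOG (-1.77 ± 0.13), HNF4A (-1.02 ± 0.11) and PDGFRA (-0.74 ± 0.09) were lower too. The other inner cell mass markers, POU5F1 (-0.23, adjusted p = 0.184) and SOX2 (-0.10, adjusted p = 0.308), were not called. The part of lineage make-up in the member ratios was not tested. Among markers of other cells, none of 5 cumulus, 2 blood and 3 oocyte genes tested was called, with cumulus means of 7.01 to 7.14 in vitro and 7.08 to 7.26 in vivo. OVGP1 and PAEP of oviduct and uterus were not detected on all arrays of either origin. Of 4 sperm markers TNP1 alone was tested and was lower in vitro (-1.63 ± 0.14), and its part was not tested. Arrays had median spot intensities of 87.3 to 187 (Cy5) and 110 to 267 (Cy3), and 60.4 to 83.0% of probes per array and channel were detected. The number of arrays limits the precision.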

How the data were processed

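Per the labels' protocols, PicoPure was used to extract RNA, RiboAmp HS Plus to amplify it and ULS Cy3 and Cy5 to label it. Per the file headers, the authors deposited the raw spot intensity and local background intensity of both channels for 8 arrays. The authors also deposited log2 ratios. Over 5284 bright probes these correlated at 0.972 to 0.994 with the raw in vitro over in vivo ratio (slopes 0.952 to 1.01), so they read in that direction. Their column medians ran from -0.00385 to 0.00131. The scanner and the authors' normalization and centring are not stated.

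In limma 3.58.1 (R 4.3.3), intensities went through normexp with an offset of 50 and then loess per array, giving control spots a weight of 0; figures used Python 3.11.15 and matplotlib 3.10.9. Tested probes had a foreground above the 95th percentile of 153 negative control spots of that channel on all 8 arrays of at least 1 origin; 24775 probes passed. No tested member was at background on every array of an origin. The mean of the 2 arrays of each number entered lmFit with an intercept, followed by eBayes. The labels give arrays of both slides the numbers 1 to 4. Deviations from the slide mean correlated at 0.703 to 0.894 within a number and at most 0.149 across numbers, so the numbers pair the arrays. The replicate block is a fit over all 8 arrays with a dye term and the number as a block (correlation 0.834), which counts degrees of freedom over 8 arrays and not over 4 replicates. A simulation put ratios with independent noise for each probe through the same test. It lacked the shared departure of replicate 2, and its outcome is not reported here.

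Symbols came from the platform annotation, which can be old. All 48 member symbols are current in the ARS-UCD2.0 gene table, and no coordinates are given because the files name no build. Protein and promoter sequences were planned for description and not used here. Replicate values are given for the largest called changes (at most 8 in each direction), other called members are named with their ratio, and importin alpha, exportin and Ran cycle genes are named whether called or not. Values shown for other members that were not called were chosen after they were seen. Members follow the symbol rule alone, but that rule and the lists were set with earlier results of these data known.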

Additional observations from a re-analysis of the deposited data

Results flagged for a closer look

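In 6 of the 60 member probes tested, 1 replicate lay far from the other 3 (Dixon's test at the 95% level, which chance passes in about 5% of groups). Replicate 2 was that replicate in 5 of them. Its log2 ratio was -0.12 for the brightest RANBP2 probe, where the others ran from 0.56 to 0.63, and -0.0779 for IPO9, where they ran from -0.85 to -0.73. It was -1.14 for NUP35 (others -0.27 to -0.14), -0.0697 for the dimmest tested KPNA1 probe (others 0.47 to 0.54) and 1.07 for a dim XPO1 probe (others -0.24 to -0.14). For NUP98 it was replicate 3, at 0.66, where the others ran from 0.30 to 0.35. The share of all tested probes with such a replicate was not counted.

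On 2 dim probes among the 60 tested, all arrays of one slide went against all arrays of the other, a difference that was not tested. A RAE1 probe gave 0.10 on slide 58 and -0.24 on slide 61, and the XPO6 probe gave -0.27 and 0.24; neither was called over the replicates.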

How the results depend on the processing

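Of 14 called member probes, 14 kept their call with Aquantile normalization, with the filter for detection in both origins, with 1 probe per gene and in the replicate block, 13 with the deposited log2 ratios and with no filter on dim probes, 12 with no background correction and with an intensity trend, and 10 with median centring; none changed direction. Over 4 replicates 5 member probes were higher and 9 lower. The higher member probes numbered 3 with no background correction, 3 with median centring, 9 in the replicate block and 8 on slide 58 alone. The lower member probes numbered 14 on slide 61 alone. Of all probes, the share called higher rose above the 7.01% over 4 replicates in the replicate block and on slide 58 alone. On slide 61 alone the share of all probes called lower rose above 8.8%. The higher genes numbered 3 with no background correction and 3 with median centring. In the replicate block 7 genes were higher and 13 lower, where 29% of all genes were called, beside 19.2% over 4 replicates. On slide 58 alone 31.4% of all genes were called, and on slide 61 alone 28.1%. With no background correction and with median centring, the shares of all probes and all genes called higher fell below 7.01% and 8.1%. In both settings these shares fell by a smaller proportion than the member counts (5 to 3), a difference that was not tested. Leaving out 1 replicate at a time gave 1 to 14 higher and 0 to 15 lower probes. By gene it gave 1 to 9 higher and 0 to 14 lower. Of all genes, 34% were called without replicate 2 and 2.47 to 4.47% without each of the others. The most member calls came without replicate 2, as over all genes, and the cause was not tested. The count of probes was not run with 1 probe per gene, which leaves single probes. IPO13, IPO4 and NUP188 read near the detection cut in vitro, which limits the size of their ratios.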
